A study of Mus musculus with 2 samples.

Results

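The muscle and cytoplasmic actins of the mouse are encoded by 6 genes, and accessible chromatin at these genes was compared between control hearts and hearts with a cardiac deletion of Ythdc1. Actc1 encodes the cardiac alpha-actin, Acta1 the skeletal alpha-actin, Acta2 and Actg2 the smooth muscle actins, and Actb and Actg1 the cytoplasmic actins found in nearly all cells. Peaks were taken by the gene identifier that the deposited table gives them, matched to each gene by position on GRCm38. Of 58076 peaks in the table, 15 were assigned to 5 of the 6 genes, with 7 at Actb, 3 at Acta2, 2 each at Actc1 and Actg2, and 1 at Acta1. The table used here has no peak assigned to Actg1.

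Open chromatin was profiled with ATAC-seq, which uses the Tn5 transposase to insert sequencing adapters into accessible DNA of isolated nuclei. There was 1 heart library per genotype, a control (Ythdc1flox/flox) and a cardiac-specific knockout (Ythdc1 CKO), both from mice 15 days old on normal chow. Ythdc1 encodes a nuclear protein that binds N6-methyladenosine in RNA. Neither the Cre driver of the deletion nor the number of animals behind each library is given in the sources used here.

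Actin polymerises into filaments, which form the thin filaments of the sarcomere in striated muscle and the cytoskeleton in other cells. In the heart, Actc1 is the main sarcomeric actin of the adult ventricle, whereas Acta1 is well known as a gene of the developing heart that is expressed again in stressed ventricles. The promoters of muscle actin genes are classic targets of serum response factor (SRF), which binds a sequence called the CArG box together with cofactors of the myocardin family.

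The upstream sequences of Actc1, Acta1 and Acta2 are shown because the peaks at these promoters cover CArG boxes or CArG-like sequences. The Actc1 peak was lower in the knockout and the Acta1 peak higher, while the Acta2 peak did not differ beyond counting error. Each run holds the 250 bases before the RefSeq start site on the minus strand of GRCm38.p6, 5′ to 3′. Capitals mark CArG boxes and CArG-like matches, in which 1 of the 6 centre bases is neither A nor T. The windows are chr2:114052876-114053125 for Actc1, chr8:123894776-123895025 for Acta1 and chr19:34255374-34255623 for Acta2.
Actc1: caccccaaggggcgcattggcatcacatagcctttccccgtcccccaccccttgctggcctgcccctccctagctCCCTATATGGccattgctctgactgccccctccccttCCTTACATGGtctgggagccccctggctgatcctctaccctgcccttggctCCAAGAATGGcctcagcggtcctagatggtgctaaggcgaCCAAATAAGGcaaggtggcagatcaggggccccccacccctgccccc
Acta1: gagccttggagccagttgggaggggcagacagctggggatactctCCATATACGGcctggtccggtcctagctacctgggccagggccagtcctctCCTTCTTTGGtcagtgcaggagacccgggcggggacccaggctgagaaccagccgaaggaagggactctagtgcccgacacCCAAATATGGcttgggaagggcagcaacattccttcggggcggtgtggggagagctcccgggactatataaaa
Acta2: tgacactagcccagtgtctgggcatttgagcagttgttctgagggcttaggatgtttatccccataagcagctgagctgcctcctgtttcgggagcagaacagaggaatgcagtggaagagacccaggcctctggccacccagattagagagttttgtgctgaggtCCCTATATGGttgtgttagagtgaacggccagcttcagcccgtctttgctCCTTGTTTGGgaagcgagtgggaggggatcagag

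Promoter sequences of 4 of the 6 genes were matched by symbol in the RefSeq table. A CArG box was present in 3 of them, Actc1, Acta1 and Actg1, and in 1.47% of all 32851 promoter windows of this length. The box lay 47 bases before the start site in Actc1 (CCAAATAAGG), 73 in Acta1 (CCAAATATGG) and 90 in Actg1 (CCATATATGG), counted from its first base. The Acta2 window held 2 CArG-like matches, CCCTATATGG at 84 bases and CCTTGTTTGG at 34 bases, a kind of match found in 7.24% of all windows. Actc1 held 3 further CArG-like matches and Acta1 held 2. All marked matches in the 3 printed windows lay inside the promoter peak, which covered 220 of the 250 bases in Actc1, 242 in Acta1 and 177 in Acta2. The sequence CATTCC, known as the M-CAT element bound by TEAD factors, was found on either strand in Acta1 and Acta2 and in 12.6% of all windows. The sequence TATAAA, searched on both strands, was found in Acta1 alone of the 4 genes and in 12.4% of all windows. The pattern of the CArG box reads the same on both strands, and none of these motifs overlapped another in the printed windows. These matches describe the sequence alone.

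Counts in peaks summed to 6755590 for the control library and 6466537 for the knockout library. Since each genotype had 1 library, the spread between animals is unknown, no test was made and no p-value is given. Differences are log2 ratios of knockout to control in CPM, counts scaled to the same total over all peaks, with 0.5 counts added per library. Intervals are exact (Clopper-Pearson) 95% intervals of the ratio and cover counting error only. Where a pair of counts is given, the control comes first. Ythdc1 itself had 1 assigned peak, at its promoter, with 358 counts against 314, which need not lie where the gene was deleted. In whole hearts, fewer cells of a type and less accessibility per cell cannot be told apart.

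The 2 alpha-actins of striated muscle differed in opposite directions. Accessibility at Actc1 was lower in the knockout at both of its peaks, and accessibility at the Acta1 promoter was higher. The smooth muscle actins had mixed ratios, and the Actb peaks had ratios from 0.905 to 1.30. By a fixed 2-fold rule of size, 1 of the 15 peaks was higher (Acta1) and 2 were lower (1 at Actc1 and 1 at Actg2), against 6.09% higher and 8.96% lower among all peaks. The interval excluded a ratio of 1 at 8 of the 15 peaks, against 39.4% of all peaks. Many of all peaks have fewer counts and so wider intervals, which makes this share not a like background. The median log2 ratio was -0.04 over the 15 peaks and -0.05 over all peaks.

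**Figure D1:**
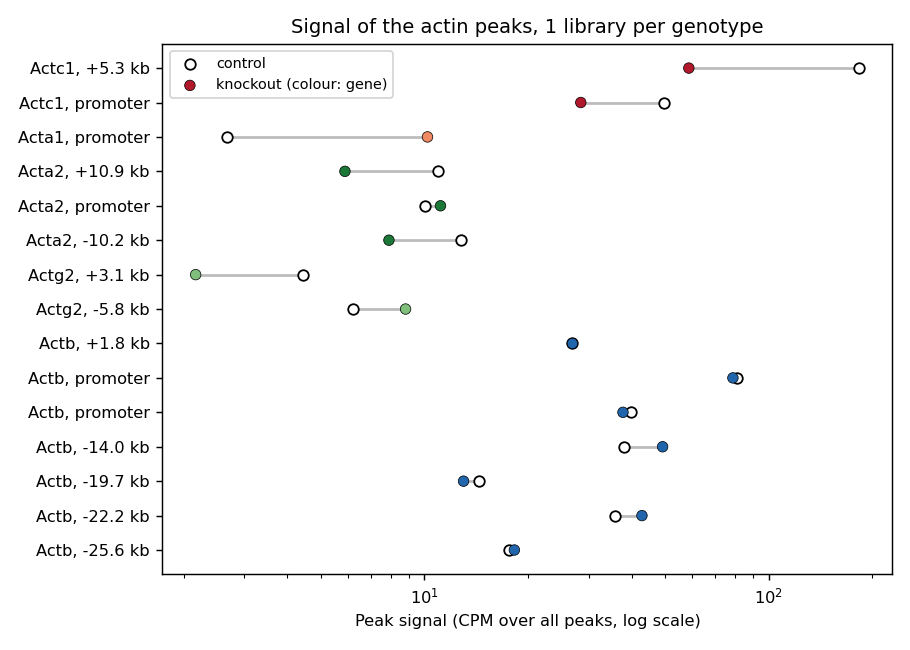
Signal of the 15 actin peaks in CPM over all peaks (log axis), open circles for the control library and coloured circles for the knockout, labelled by gene and by distance to the start of the transcript that the table names. The Actc1 peaks lie far to the left of their controls in the knockout, the Acta1 promoter lies to the right, and the Actb pairs nearly coincide.

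Actc1 (ENSMUSG00000068614, chromosome 2, 114047282 to 114052887) had the actin peak with the most counts over both libraries together. This peak spans the 3′ end of the gene (114046189 to 114047584, annotated as 3′ UTR), with 303 bases inside the gene and 1093 beyond it. The control library had 1238 counts here and the knockout library 379. This gave a log2 ratio of -1.64 and a ratio of 0.320 (interval 0.284 to 0.359). Of the 256 peaks in the table with at least as many counts over both libraries, itself included, none had a lower ratio. Only 42 of these lay outside promoters. With weaker peaks included, 2.09% of all peaks and 2.88% of those outside promoters had a lower ratio. The authors called this peak in the control library alone, which can select for signal there. These calls do not strictly follow counts, since an Actb peak with 181 and 174 counts was also called in the control alone. The 379 counts here are well above the median of 60 per peak in the knockout.

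The Actc1 promoter peak (114052716 to 114053095), the peak over the CArG box shown above, had 335 counts in the control library against 184 in the knockout. Its log2 ratio was -0.80 and its ratio 0.575 (interval 0.477 to 0.689). This peak was called in both libraries. Among 5076 promoter peaks with at least as many counts, itself included, 3 had a lower ratio. With weaker peaks included, 4.76% of all promoter peaks had a lower ratio. The 2-fold rule was passed by 2.70% of promoter peaks upward and 2.87% downward, and the Actc1 promoter did not pass it.

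Summed over both peaks, Actc1 had 1573 control counts and 563 knockout counts, a log2 ratio of -1.42 (ratio 0.374, interval 0.339 to 0.412). The 3′ peak made up 78.7% of the control counts and 67.3% of the knockout counts. The intervals of its 2 peaks did not overlap, so the ratio was lower at the 3′ end than at the promoter by more than counting error. Per length, both peaks had nearly the same level in the control, 131.3 CPM per kb at the 3′ end and 130.5 at the promoter. In the knockout the levels were 42.0 and 74.9 CPM per kb.

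A further 2 peaks lay within 10 kb upstream of Actc1 and were assigned by the table to C130080G10Rik, a neighbouring locus named by position. Both are annotated as promoter peaks of that locus, and whether they serve Actc1 is not known. The nearer peak, centred 1436 bp before the Actc1 start, held 342 control counts and 197 knockout counts (ratio 0.602, interval 0.502 to 0.719). The farther peak, centred 4575 bp before it, held 318 and 139 (ratio 0.458, interval 0.371 to 0.559). All 4 peaks in and within 10 kb of Actc1 were therefore lower in the knockout library, with 2 of them past 2-fold, and 3 of the 4 were called in both libraries.

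**Figure D2:**
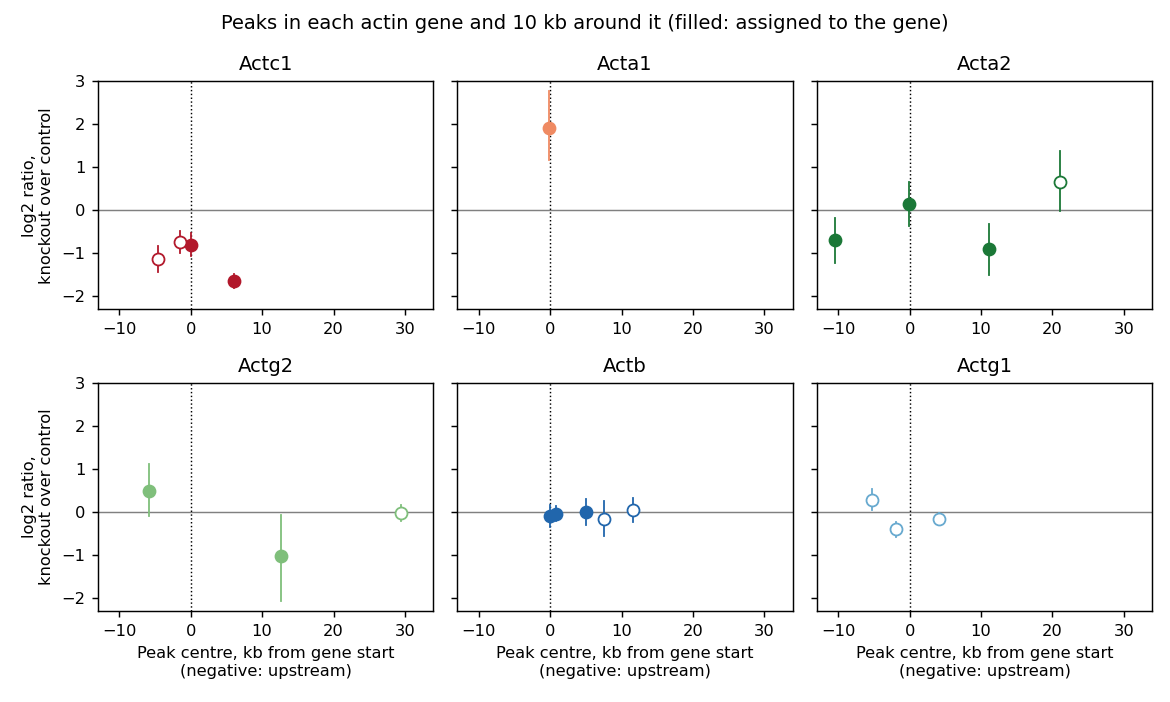
Log2 ratio of every peak in each actin gene and 10 kb on either side, by distance of the peak centre from the gene start in kb, with exact 95% counting intervals as bars, filled where the table assigns the peak to the gene. All 4 peaks around Actc1 lie below 0, the single Acta1 peak lies above, and those around Actb lie near 0.

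Acta1 (ENSMUSG00000031972, chromosome 8, 123891758 to 123894775 in RefSeq) had a single peak, at its promoter (123894765 to 123895017). The control library had 18 counts here and the knockout library 66. This gave a log2 ratio of 1.91 and a ratio of 3.76, with a wide interval of 2.25 to 6.86 that reflects the 18 control counts. Among 16881 promoter peaks with at least as many counts, itself included, 6 had a higher ratio. The peak was called in the knockout library alone, which can select for a high count there. No other peak lay within 10 kb of the gene.

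The interval of the Acta1 promoter ratio lay wholly above that of the Actc1 promoter. Per length, the Actc1 promoter had 12.4 times the level of the Acta1 promoter in the control, at 130.5 against 10.5 CPM per kb. In the knockout it had 1.86 times that level, at 74.9 against 40.3 CPM per kb. The Actc1 promoter thus had the higher level per kb in both libraries, with a smaller gap in the knockout. The size of the gap in the control rests on 18 Acta1 counts, at a peak called in the knockout alone.

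**Figure D3:**
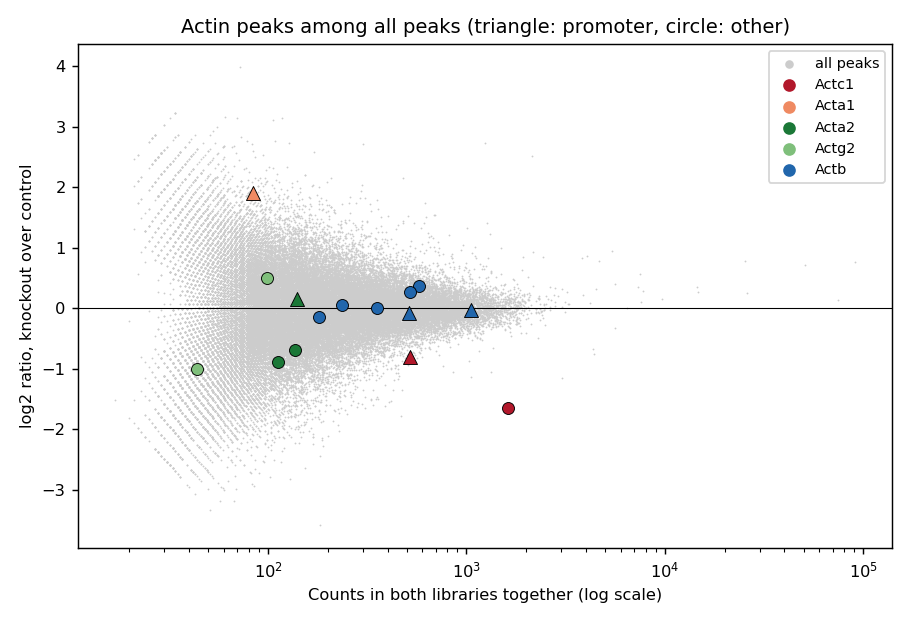
Log2 ratio of knockout to control against the counts of both libraries together (log axis) for all peaks in grey, with actin promoter peaks as triangles and other actin peaks as circles, coloured by gene. The Actc1 3′ peak, at -1.64, lies below every grey point at its count or to its right.

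Acta2 (ENSMUSG00000035783, chromosome 19, 34241090 to 34255336), the smooth muscle alpha-actin also made by pericytes and activated fibroblasts, had 3 peaks. At the promoter (34255227 to 34255550), the peak over the CArG-like matches shown above had 68 control counts and 72 knockout counts, a ratio of 1.11 whose interval of 0.783 to 1.56 held 1. Its log2 ratio of 0.14 became -0.03 on the authors' RPM scale, so it has no direction that holds across scalings. The intronic peak (34244105 to 34244443) held 74 and 38 counts (ratio 0.540, interval 0.353 to 0.804) and was called in the control alone. The intergenic peak 10165 bp before the start (34265501 to 34266136) held 86 and 51 counts (ratio 0.622, interval 0.429 to 0.886) and was called in both libraries. Both peaks away from the promoter were thus lower in the knockout, neither past 2-fold in CPM, while 12.0% of peaks outside promoters were at least 2-fold lower. On the authors' RPM scale the intronic peak passed 2-fold, at a log2 ratio of -1.05. Summed over its 3 peaks, Acta2 had 228 and 161 counts (ratio 0.738, interval 0.599 to 0.907). A further peak within 10 kb, assigned to Stambpl1 (34234044 to 34234387), went the other way, with 31 and 47 counts. Its ratio was 1.58 (interval 0.985 to 2.58), and it was called in the knockout alone. With this peak the sums were 259 and 208 counts, a ratio of 0.839 whose interval of 0.696 to 1.01 held 1.

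Actg2 (ENSMUSG00000059430, chromosome 6, 83512905 to 83536265), the gamma-actin of visceral smooth muscle, had 2 peaks with few counts, and neither was a promoter peak. The intronic peak (83523519 to 83523803) had 30 control counts and 14 knockout counts, a ratio of 0.497 with an interval of 0.239 to 0.948. This value sits at the 2-fold threshold, with a log2 ratio of -1.01, which became -0.26 with a loess trend removed. The peak 5757 bp before the start (83542022 to 83542321) held 42 and 57 counts, a ratio of 1.41 whose interval of 0.935 to 2.17 held 1. The sums, 72 and 71 counts, gave a ratio of 1.03 (interval 0.732 to 1.45). The 2 peaks went in opposite directions, so the sum describes neither.

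Over the 5 peaks of the smooth muscle actins, levels per length ran from 15.6 to 32.3 CPM per kb in the control and from 7.60 to 34.4 in the knockout. These are below the Actc1 range of 130.5 to 131.3 CPM per kb in the control.

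Actb (ENSMUSG00000029580, chromosome 5, 142903115 to 142906754), the beta-actin of the cytoskeleton, had the most peaks, with log2 ratios between -0.14 and 0.38. Its promoter peaks held 545 and 509 counts (142905648 to 142906261, ratio 0.976, interval 0.863 to 1.10) and 269 and 244 counts (142906530 to 142906929, ratio 0.948, interval 0.794 to 1.13). Both intervals held 1, and both promoter peaks were called in both libraries. The peak 1804 bp from the start of an annotated transcript (142901538 to 142901850) lay beyond the 3′ end of the gene, centred 5060 bp from the gene start. It held 181 and 174 counts (ratio 1.004, interval 0.811 to 1.24) and was called in the control alone.

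The other 4 Actb peaks are intergenic and lie upstream. The nearest, 13959 bp before the start (142920713 to 142921384), had 256 control counts and 318 knockout counts (ratio 1.30, interval 1.10 to 1.54). The peak at 22166 bp (142928920 to 142929733) held 241 and 277 counts (ratio 1.20, interval 1.01 to 1.43). The peaks at 19655 bp (97 and 84 counts) and 25611 bp (119 and 118 counts) had ratios of 0.905 and 1.04 with intervals that held 1. The log2 ratios of the peaks at 13959 and 22166 bp stayed above 0 under each scaling run, down to 0.20 and 0.09 on the authors' RPM scale. Their intervals exclude 1 in CPM, with log2 lower bounds of 0.13 and 0.01. The RPM scale lowered log2 ratios by a median of 0.17, so on that scale both intervals would hold 1. All 7 Actb peaks stayed within 2-fold. Summed, Actb had 1708 and 1724 counts (ratio 1.05, interval 0.986 to 1.13). The control level of its stronger promoter peak, 131.4 CPM per kb, was close to that of the Actc1 promoter, and in the knockout it was 128.2.

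**Figure D4:**
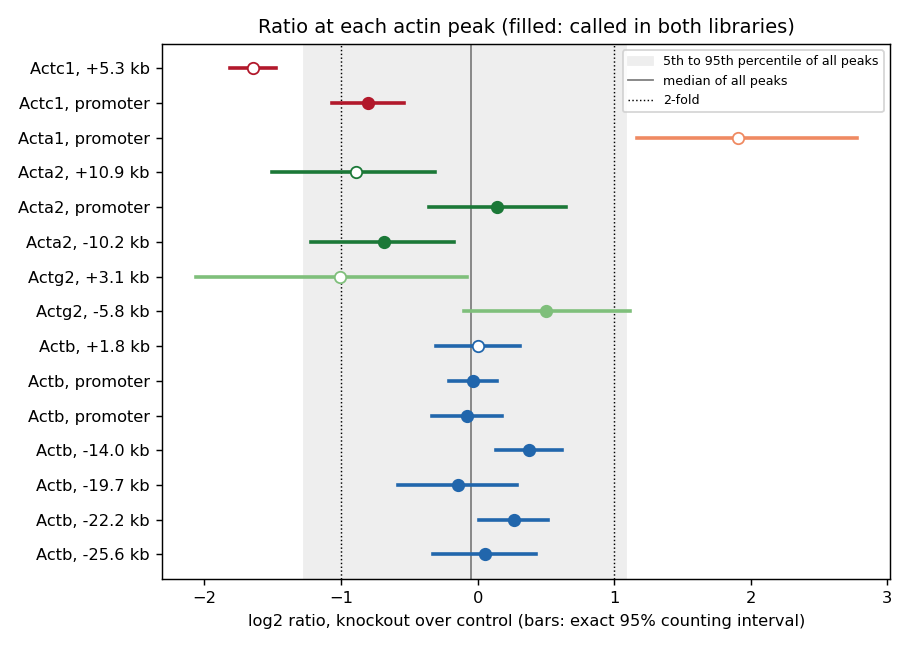
Log2 ratio at each of the 15 actin peaks with exact 95% counting intervals, filled where the peak was called in both libraries, with the 5th to 95th percentile of all peaks shaded and 2-fold marked by dotted lines. The Actc1 3′ peak and the Acta1 promoter lie outside the shaded range, and every Actb peak lies inside the 2-fold lines.

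Actg1, the cytoplasmic gamma-actin (chromosome 11, 120345687 to 120348495 in RefSeq), had no assigned peak, but 3 peaks assigned to other loci lay within 10 kb. The peak beyond its 3′ end (120343570 to 120345319) held 962 and 829 counts (ratio 0.900, interval 0.819 to 0.989). The peak centred 1894 bp before its start held 634 and 461 counts (ratio 0.760, interval 0.672 to 0.858). The peak centred 5243 bp before its start held 256 and 300 counts (ratio 1.22, interval 1.03 to 1.45). These peaks were called in both libraries, did not share a direction, and stayed within 2-fold. Whether they serve Actg1 cannot be read from the table.

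Scaling could change signs near a ratio of 1. Across CPM, median centring, TMM, a loess trend and the authors' RPM scale, 11 of the 15 peaks kept their sign, including both Actc1 peaks (from -1.81 to -1.59 at the 3′ end and from -0.97 to -0.75 at the promoter) and Acta1 (1.71 to 2.09). The 4 that did not were the Acta2 promoter and 3 Actb peaks, all with intervals that held 1.

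Genes that act on actin were described by the strongest promoter peak of each, beside all 13296 genes with a symbol and a promoter peak, whose median log2 ratio was -0.02 with 6150 above 0 and 7146 below. Passing 2-fold was rare among all these genes, with 200 higher and 236 lower. Among the transcription factors of actin genes, 4 of 11 measured members were above 0 and 7 below, none past 2-fold, with a median of -0.10. The interval excluded 1 upward at 1 of them and downward at 4, against 32.2% of all 19366 promoter peaks in either direction. That share includes weaker peaks, whose intervals are wider, so it is not a like background for the strongest peak of each gene. The largest differences were at Nkx2-5, the cardiac homeobox factor (176 and 109 counts, ratio 0.648, interval 0.505 to 0.826), Myocd, the SRF cofactor myocardin (243 and 166, 0.714, 0.582 to 0.873), Mef2c (230 and 174, 0.791, 0.645 to 0.967) and Mrtfb, an actin-regulated SRF cofactor (197 and 238, 1.26, 1.04 to 1.53). Srf itself had 403 and 367 counts, a ratio of 0.951 with an interval of 0.824 to 1.10.

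Genes of actin filament assembly and turnover were 9 above 0 and 11 below among 20 measured. None passed 2-fold, against 200 higher and 236 lower of all 13296 genes. Their median of -0.08 became 0.06 when a gene's promoter peaks were averaged. The largest differences were at Pfn1, the monomer-binding profilin (130 and 174 counts, ratio 1.40, called in the knockout alone), Capzb, a subunit of the barbed-end capping protein (461 and 325, 0.737), Fhod3, the cardiac formin (547 and 403, 0.770) and Cfl1, the severing protein cofilin (290 and 357, 1.29). Over the 20 genes the interval excluded 1 upward at 2 and downward at 6, these 4 included. The share was 32.2% over all promoter peaks, weaker ones included.

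Proteins bound to actin in thin filaments and Z-discs were 8 above 0 and 9 below among 17 measured, with a median of -0.02. None passed 2-fold, against 200 higher and 236 lower of all 13296 genes. The interval excluded 1 upward at 5 and downward at 5, against 32.2% of all promoter peaks, weaker ones included. Tpm2, a tropomyosin (95 and 181 counts, ratio 1.99, interval 1.54 to 2.58), and Lmod3, a leiomodin that nucleates actin in muscle (176 and 89, 0.530, 0.405 to 0.685), were the farthest on either side. Xirp2 had 61 and 90 counts (1.54, 1.10 to 2.17), and Lmod2, the leiomodin that sets thin filament length in the heart, had 342 and 233 (0.712, 0.600 to 0.843). On the RPM scale, which lowered log2 ratios by a median of 0.17 relative to CPM, the 3 lists had 1 of 11, 3 of 20 and 6 of 17 members above 0, against 3256 of 13296 genes.

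**Figure D5:**
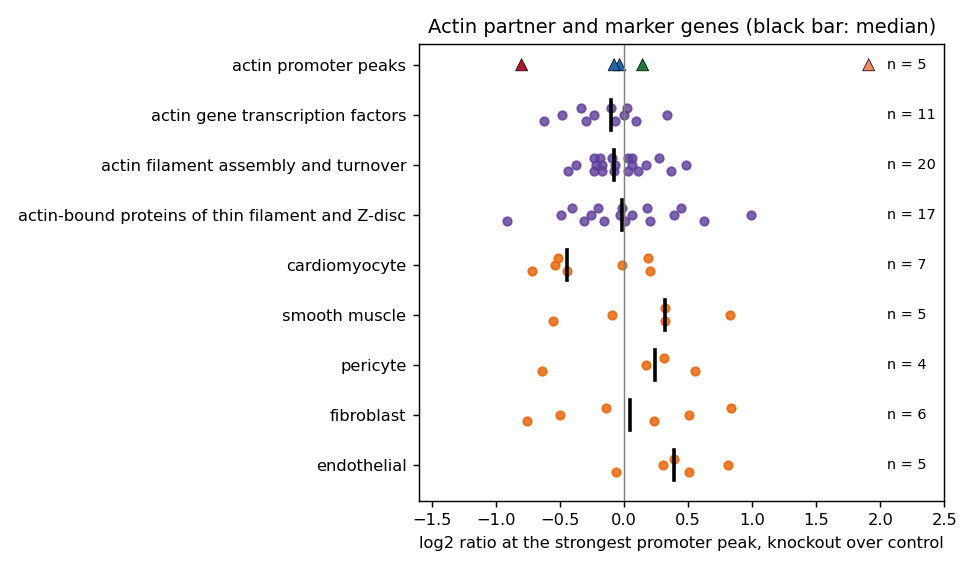
Log2 ratio at the strongest promoter peak of each measured gene in the lists of actin partners (purple) and cell type markers (orange), with the median as a black bar and the actin promoter peaks as triangles on top. The cardiomyocyte median lies at -0.44, and the Acta1 triangle, at 1.91, lies to the right of every listed gene.

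Markers of the cell types that could carry these peaks were read in the same way. Cardiomyocyte markers had 5 of 7 measured members below 0 and a median of -0.44, whose interval of -0.72 to 0.20 held 0. Myl2 had 296 and 172 counts (ratio 0.608) and Pln 105 and 69 (0.688). Myh6, at 799 and 758 (0.991), had a log2 ratio of -0.01, near the all-gene median of -0.02. The 2 above 0 were Tnnt2 at 419 and 457 (1.14) and Actn2 at 161 and 177 (1.15). The Myl2 and Pln peaks were called in the control alone. The summed promoter level of the cardiomyocyte markers was 352.9 CPM in the control and 315.9 in the knockout. Smooth muscle markers had 3 of 5 members above 0, with a median of 0.32 that became -0.19 when a gene's promoter peaks were averaged, and summed levels of 118.9 and 137.3 CPM. Tagln, called in the knockout alone, had 97 and 165 counts (ratio 1.77), whereas Synpo2 had 106 and 69 (ratio 0.682). Pericyte markers had 3 of 4 above 0 (median 0.24, sums of 66.9 and 69.9 CPM). Kcnj8, the pericyte marker with the largest difference, was lower, with 176 and 108 counts (ratio 0.642). Fibroblast markers had 3 of 6 above 0 (median 0.05, sums of 90.0 and 110.1 CPM), and endothelial markers 4 of 5 (median 0.39, sums of 102.6 and 129.4 CPM). Of 8 skeletal muscle markers, 1 had a promoter peak with a matched symbol, Tnnt3, at 73 and 45 counts (ratio 0.647), and no promoter peak was matched to a myeloid marker. Actc1 was lower in the knockout library, and so was the cardiomyocyte median, though its interval held 0. The part of cell type shares in the actin ratios was not tested.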

How the data were processed

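ATAC-seq was analysed in 2 heart libraries, grouped by the genotype label. BWA and MACS2 were used with GRCm38.p6, per the submitters' processing notes. For read filters, duplicates and the Tn5 offset, the steps are not stated in the labels. The authors merged peaks of both libraries into 1 deposited table of raw counts per peak, per the file headers. The authors' deposited RPM values equal (count + 1) times 0.01965 in the control and 0.01822 in the knockout. Their deposited log2 fold change is the log2 ratio of these RPM values. The deposited fold enrichment, a ratio, was not used.

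Log2 ratios, exact intervals (SciPy 1.17.1) and gene sums were computed from the counts. Ratios and intervals of single peaks, but not gene sums, were tested on simulated counts that held counting error alone. TMM factors came from edgeR 4.0.16. Coordinates are those of the deposited table. A promoter is a peak within 1 kb of a start site. Ensembl identifiers were matched to RefSeq symbols by position (overlap over union of at least 0.5 and 2 times the next candidate, or both ends within 1 kb, or containment in 1 protein-coding gene), which named 18558 of 24480 identifiers. Named list genes are up to 4 per list with the largest promoter difference, and any past 2-fold. For marker lists fewer were named, and Srf, Myh6, Tnnt2 and Actn2 were named outside this rule after their values were seen. The members and lists were chosen with earlier results of these data known.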

Additional observations from a re-analysis of the deposited data

How the results depend on the processing

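Of 75 alternative values of the 15 single peaks, all stayed within their counting interval. Of 38 alternative values of gene sums, 30 did so. The Actc1 sum (-1.42) was -1.59 on the authors' RPM scale, -0.80 from the promoter peak alone or from peaks called in both libraries, which is the same peak, and -1.25 with all peaks within 10 kb. The Acta2 sum (-0.44) changed sign to 0.14 at the promoter alone. The Actb sum (0.08) was -0.10 on the RPM scale, -0.031 with peaks within 10 kb and -0.049 at promoters. No peak of Acta1 was called in both libraries and Actg2 had no promoter peak, so these values could not be computed. The 1 peak at least 2-fold higher (Acta1) was lost, leaving 0, among peaks called in both libraries, and so were both lower peaks, leaving 0. Lower peaks numbered 1 with median centring, TMM or loess, the Actg2 intron peak no longer passing. Among all peaks, 8.01% were at least 2-fold lower with median centring or TMM and 4.11% with loess. A minimum of 50 counts also left 1, without the Actg2 intron peak. On the RPM scale lower peaks numbered 3, where the Acta2 intron peak also passed, against 12.3% of all peaks. They numbered 5 by the 1.5-fold rule, which 11642 of 58076 peaks passed downward. The median of actin filament assembly and turnover genes (-0.08) was -0.25 on the RPM scale. The other 23 alternative values of list medians stayed within the interval of the median, but some changed sign. As a mean over promoter peaks the median was 0.061 for assembly and turnover genes, 0.0014 for transcription factors (from -0.10) and -0.19 for smooth muscle markers (from 0.32). On the RPM scale it was -0.12 for fibroblast markers (from 0.05). The cause of these shifts was not tested. Low counts limit the Acta1 and Actg2 peaks most. No paired analysis was possible because each genotype has 1 library.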
